A study of Mus musculus with 15 samples.

Results

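The genes described here build, move along or take apart actin filaments in the mouse oocyte. They are the nucleators Fmn2, Spire1 and Spire2, the myosin motors Myo10 and Myo5b, the actins Actb and Actg1, the actin-binding proteins Cfl1 and Pfn1, and the coronin Coro2b. These 10 genes, of 53700 in the count tables, were listed by name for their role. Myo10 and Coro2b were selected on their difference in level between Tle6 knockout and control oocytes in these same libraries, so no test is given for them in any contrast that uses the Tle6 line. No such choice is recorded for the other 8, although all 10 genes were chosen with earlier results of these data known.

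A fully grown oocyte holds a mesh of actin filaments throughout its cytoplasm. FMN2, a formin, and the SPIRE proteins nucleate its filaments together, and MYO5B is the motor that acts on the RAB11A-positive vesicles from which the filaments grow. The mesh is needed to move the meiotic spindle to the cortex. Profilin delivers actin monomers to growing filaments and cofilin severs old ones. MYO10 carries cargo to the tips of filopodia, and coronins bind filaments and act on their turnover and branching.

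The libraries were made from polyA RNA of germinal vesicle (GV) stage oocytes, which are arrested before the first meiotic division, with 15 oocytes in each library. Padi6 knockout (KO) and Padi6 heterozygous (het) oocytes were on the FVB/N background, with 3 biological replicates each. Tle6 KO oocytes, with 4 biological replicates, and Tle6 het oocytes, with 2, were on the C57BL/6J background. PADI6 is needed for the cytoplasmic lattices, the fibres that fill the oocyte cytoplasm, and TLE6 belongs to the subcortical maternal complex that is tied to them. Both control groups carried 1 targeted allele, although the short names inside the sample titles call them WT. The labels do not give the age of the animals, which animals gave which oocytes, or how the alleles were made. The oocytes of a library were pooled, so the replicates measure the spread between pools, which may be partly technical. Tle6 KO replicate 4 and both Tle6 het replicates were each deposited as 2 technical libraries, A and B, which were summed. Strain, targeted gene and sequencing run cannot be told apart between the lines, so the 2 KO contrasts were made within each line.

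The targeted transcripts followed the genotypes. Padi6 stood at 24.8, 23.5 and 18.8 scaled CPM in the Padi6 KO replicates, against 1746, 1594 and 1669 in the Padi6 het replicates. Tle6 stood at 91.4, 76.4, 61.1 and 97.1 scaled CPM in the Tle6 KO replicates, against 457 and 429 in the Tle6 het replicates. Scaled CPM are the counts divided by library size after TMM scaling over the 12 replicates. The libraries held between 30100177 and 74947533 gene counts. The 12 oocyte markers summed to between 10990 and 22000 unscaled CPM per library, and the 15 granulosa and cumulus markers to between 87.8 and 135.5. Nr5a2 and Cyp19a1 made up most of the granulosa and cumulus sum in every group. The median marker of that list averaged 0.659 unscaled CPM over the libraries. The 9 blood and immune markers summed to between 0.587 and 2.33 unscaled CPM per library. Cd68 made up most of that sum in every group, and Hbb-bs, Hbb-bt and Hba-a2 had no count in any library. The summed theca and stroma markers were 41.3 ± 1.3 scaled CPM in Padi6 KO and 62.9 ± 2.7 in Padi6 het oocytes (SD, n = 3 each). Myh11, a smooth muscle myosin heavy chain, made up most of that sum, and the part of such cells in the results below was not tested.

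Library B of Tle6 het replicate 2 stood apart from library A of the same replicate. Across genes the log2 levels of A and B correlated at r = 0.961 there, against 0.999 in Tle6 het replicate 1 and 0.999 in Tle6 KO replicate 4. Among the 10 genes, the log2 ratio of A to B ran from -2.90 to 2.29 in Tle6 het replicate 2, from -0.08 to 0.16 in Tle6 het replicate 1 for the genes other than Coro2b, and from -0.05 to 0.26 in Tle6 KO replicate 4. The summed oocyte markers were 20170 unscaled CPM in library A of Tle6 het replicate 2 and 10990 in library B. The other libraries of the Tle6 line lay between 14370 and 17080, so A was above all of them and B below all of them. Which of A and B is nearer to the RNA of that replicate was not tested. In pooled oocytes, fewer cells of a type and less RNA per cell cannot be told apart.

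**Figure D1:**
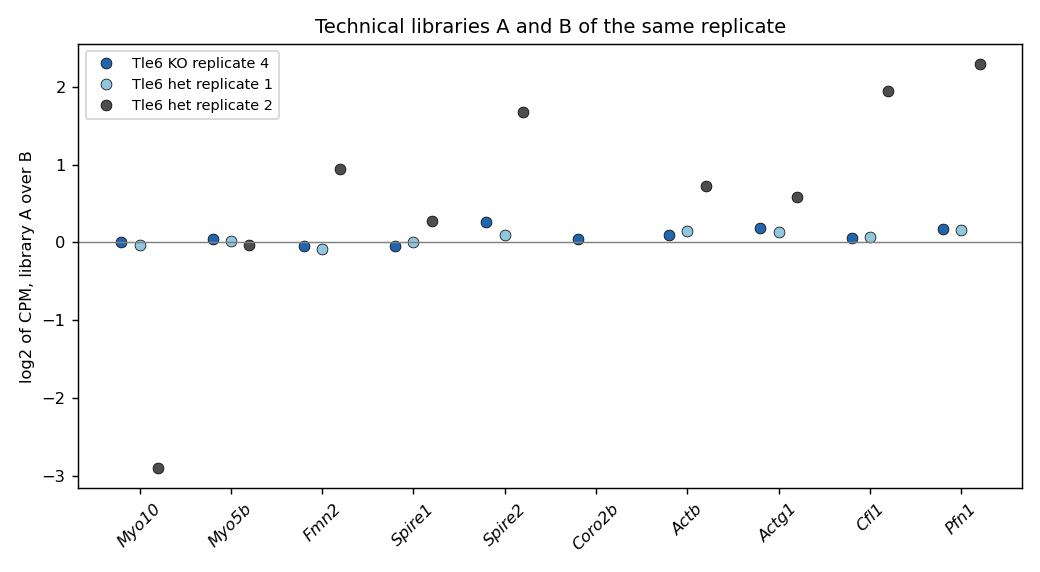
The log2 ratio of unscaled CPM in technical library A over library B is plotted for the 10 genes in each of the 3 replicates that have both. The points of Tle6 KO replicate 4 and Tle6 het replicate 1 lie between -0.08 and 0.26, while those of Tle6 het replicate 2 reach -2.90 for Myo10 and 2.29 for Pfn1. Coro2b is shown for Tle6 KO replicate 4 alone, since a Tle6 het library had as few as 1 count.

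The windows around the annotated starts of the genes with the widest changes in level, Myo10 and Coro2b, are shown first, with that of Actg1, one of 2 nearly identical actins. They run from 250 bases before the start to 50 after it, are written 5′ to 3′ along the gene's strand, and come from RefSeq on GRCm38.p6, which is C57BL/6J sequence. Capitals mark any match on either strand to a CArG box (the serum response factor motif), to the TATA box motif TATAAA, to the CAAT box motif CCAAT or to the homeodomain motif TAATTG. The Sp1 motif GGGCGG and the E-box motif CANNTG were also searched on both strands and are not in capitals. Myo10 has 2 annotated starts, at chr15:25622300-25622599 and chr15:25752956-25753255 on the plus strand. Coro2b lies on the minus strand at chr9:62536995-62537294, and Actg1 on the minus strand at chr11:120348446-120348745.
Myo10 first start: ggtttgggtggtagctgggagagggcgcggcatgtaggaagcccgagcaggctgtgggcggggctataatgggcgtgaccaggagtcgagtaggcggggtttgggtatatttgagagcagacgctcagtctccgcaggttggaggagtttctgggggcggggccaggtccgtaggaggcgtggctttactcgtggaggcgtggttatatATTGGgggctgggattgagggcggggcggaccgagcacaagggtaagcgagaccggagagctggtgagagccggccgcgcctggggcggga
Myo10 second start: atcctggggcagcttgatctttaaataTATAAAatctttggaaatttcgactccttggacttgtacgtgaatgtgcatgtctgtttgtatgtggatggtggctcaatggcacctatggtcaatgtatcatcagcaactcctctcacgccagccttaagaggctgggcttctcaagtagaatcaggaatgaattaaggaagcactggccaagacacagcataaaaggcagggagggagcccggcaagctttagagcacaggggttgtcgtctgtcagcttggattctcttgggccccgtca
Coro2b: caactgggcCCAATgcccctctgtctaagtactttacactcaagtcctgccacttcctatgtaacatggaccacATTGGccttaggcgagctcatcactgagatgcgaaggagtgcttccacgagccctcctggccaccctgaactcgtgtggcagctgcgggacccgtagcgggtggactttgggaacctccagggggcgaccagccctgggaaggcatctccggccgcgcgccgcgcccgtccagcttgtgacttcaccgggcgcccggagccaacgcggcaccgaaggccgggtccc
Actg1: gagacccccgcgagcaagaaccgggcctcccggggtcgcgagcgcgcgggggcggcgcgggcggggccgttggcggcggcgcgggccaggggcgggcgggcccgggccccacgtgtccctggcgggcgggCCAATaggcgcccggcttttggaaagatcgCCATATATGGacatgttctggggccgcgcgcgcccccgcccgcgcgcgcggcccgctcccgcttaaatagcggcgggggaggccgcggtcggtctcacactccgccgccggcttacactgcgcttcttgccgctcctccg

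The upstream Myo10 window had a GC content of 64.7% with 23 CpG dinucleotides, 1 CCAAT on the reverse strand and 5 matches to GGGCGG. The downstream Myo10 window had a GC content of 48.0% with 6 CpG dinucleotides and a TATAAA 223 bases before the start. The gene counts do not tell transcripts from the 2 starts apart. The Coro2b window, with 64.3% GC and 22 CpG dinucleotides, held 2 CCAAT matches, at 241 and 176 bases before the start, and no CArG box or TATAAA. The Actg1 window was the richest in CpG of the windows found for 7 of the genes, with 50 CpG dinucleotides and 77.3% GC, and held a CArG box 90 bases before the start. Over 32851 windows of the same length, not counting those on chromosome 18, the median was 52.7% GC and 7 CpG dinucleotides. Of those windows 1.63% held a CArG box, 13.6% the TATA box, 8.0% the homeodomain motif, 37.4% the CAAT box, 72.3% an E-box and 35.7% GGGCGG. Each match is a description of letters and not of binding.

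Per kilobase of exon, Myo5b had the highest mean of the 10 genes in all 4 groups, though its range overlapped that of Actb in Tle6 KO oocytes. Its mean was 73.9 scaled CPM per kb in Padi6 KO, 82.1 in Padi6 het, 58.0 in Tle6 KO and 76.6 in Tle6 het oocytes. Actb came second in Padi6 KO (65.1), Padi6 het (69.3) and Tle6 KO (52.9) oocytes, and in Tle6 het oocytes its 49.2 followed the 55.3 of Spire1, with overlapping ranges. Spire1 was above Fmn2 in every group, at 42.5 against 20.9 scaled CPM per kb in Padi6 KO and 43.9 against 18.8 in Padi6 het oocytes. In the Tle6 line the means of Spire1 and Fmn2 were 47.9 and 20.9 in KO and 55.3 and 25.4 in het oocytes. Spire2 was far lower, at 4.09 scaled CPM per kb in Padi6 KO, 4.56 in Padi6 het, 2.98 in Tle6 KO and 2.52 in Tle6 het oocytes. Gm20388 overlaps Spire2 on the same strand, and any reads lost from Spire2 to that overlap were not tested.

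At the bottom of the order stood Coro2b, at 1.26 scaled CPM per kb in Padi6 KO, 1.11 in Padi6 het, 2.04 in Tle6 KO and 0.0188 in Tle6 het oocytes. Myo10 was the next lowest in both Padi6 groups, at 2.39 in KO and 4.41 in het oocytes. In Tle6 KO oocytes, however, Myo10 averaged 33.6 ± 9.7 scaled CPM per kb (SD, n = 4) and ranked 4th, with a range that overlapped its neighbours Spire1 and Fmn2. In Tle6 het oocytes it averaged 4.57 ± 1.66 (SD, n = 2) and ranked 8th. In Padi6 KO oocytes Cfl1 and Actg1 were the 1 pair of neighbours in the order whose ranges overlapped. In Padi6 het oocytes that pair was Spire2 and Myo10.

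**Figure D2:**
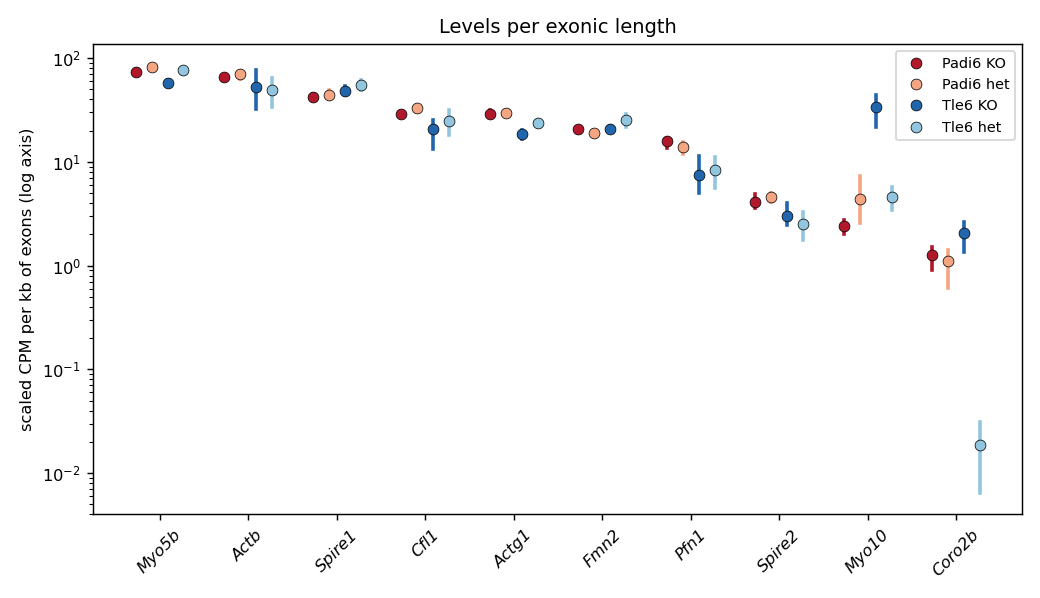
Scaled CPM per kb of exon (log axis) is plotted for the 10 genes in Padi6 KO, Padi6 het, Tle6 KO and Tle6 het oocytes, with points at the group means and bars from the lowest to the highest replicate. Myo5b has the highest mean in every group, overlapping Actb in Tle6 KO oocytes, Myo10 stands out in Tle6 KO oocytes at 33.6 and Coro2b in Tle6 het oocytes at 0.0188.

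Fmn2, the formin of the cytoplasmic mesh, differed little between Padi6 KO and Padi6 het oocytes. It stood at 160, 167 and 172 scaled CPM in the Padi6 KO replicates, against 159.9, 137 and 151 in the Padi6 het replicates. All 3 KO values were above all 3 het values, but the highest het value was within 1 scaled CPM of the lowest KO value. The log2 fold change was 0.15 ± 0.09 (SE) with an adjusted p of 0.420 in edgeR's quasi-likelihood test. Among Tle6 oocytes Fmn2 stood at 161, 177, 159 and 167 scaled CPM in KO oocytes, against 174 and 229.9 in het oocytes. These groups overlapped through KO replicate 2, and the log2 fold change was -0.24 ± 0.18 (adjusted p = 0.509 by edgeR), -0.44 without library B of het replicate 2 and -0.13 without library A. The Tle6 effect minus the Padi6 effect was -0.44 ± 0.19 on the log2 scale, with an unadjusted p of 0.0374 and an adjusted p of 0.209 in edgeR's test over all genes, and was -0.59 without library B and -0.34 without library A.

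Spire1, the more abundant SPIRE nucleator, overlapped between KO and het oocytes in both lines. It stood at 348, 309 and 334 scaled CPM in Padi6 KO, against 385, 309.5 and 328 in Padi6 het oocytes. Its Tle6 values were 344.5, 378, 414 and 352.5 in KO, against 385.5 and 473 in het oocytes. The log2 fold changes were -0.05 ± 0.10 for the Padi6 KO and -0.16 ± 0.18 for the Tle6 KO, with adjusted p of 0.861 and 0.666 in edgeR's test, and with total-count scaling the Tle6 value was 0.00.

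Spire2, its low-level paralog, also overlapped between KO and het oocytes in both lines. It stood at 12.3, 8.99 and 9.49 scaled CPM in Padi6 KO, against 11.4, 10.2 and 12.7 in Padi6 het oocytes. Its level in the Tle6 line was 6.26, 7.36, 6.13 and 10.1 in KO, against 8.23 and 4.43 in het oocytes. The log2 fold changes were -0.16 ± 0.16 and 0.29 ± 0.34, with adjusted p of 0.660 and 0.692 by edgeR. The Tle6 value was 0.01 without library B of Tle6 het replicate 2, 0.47 without library A and -0.13 without that replicate.

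Myo10 was low in Padi6 and Tle6 het oocytes alike and high in the Tle6 KO. It stood at 20.3, 27.8 and 24.5 scaled CPM in Padi6 KO, against 26.3, 74.3 and 33.2 in Padi6 het oocytes, where replicate 2 was far above the others. The log2 fold change was -0.89 ± 0.33 with an unadjusted p of 0.0234 and an adjusted p of 0.189 in edgeR's test, so Myo10 did not pass. Without Padi6 het replicate 2 the log2 fold change was -0.28. With no filter on low counts the same fold change had an adjusted p of 8.65e-08.

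In the Tle6 line Myo10 stood at 449.6, 221, 307 and 383 scaled CPM in KO oocytes, against 34.3 and 58.1 in het oocytes. All 4 KO replicates were above both het replicates, and above every replicate of the Padi6 line. The log2 fold change was 2.92, and because this contrast picked the gene it is a description without a test. The technical libraries of Tle6 KO replicate 4 gave 374 and 374 unscaled CPM for Myo10, and those of Tle6 het replicate 1 gave 29.9 and 30.5. Those of Tle6 het replicate 2 gave 9.45 in library A and 70.7 in library B, a 7.48-fold difference within 1 replicate. Even the higher of these lay below the 229 unscaled CPM of the lowest KO replicate. The log2 fold change was 3.97 without library B and 2.42 without library A. The Tle6 effect minus the Padi6 effect was 3.76 on the log2 scale for Myo10, 4.84 without library B and 3.18 without Padi6 het replicate 2, again without a test.

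**Figure D3:**
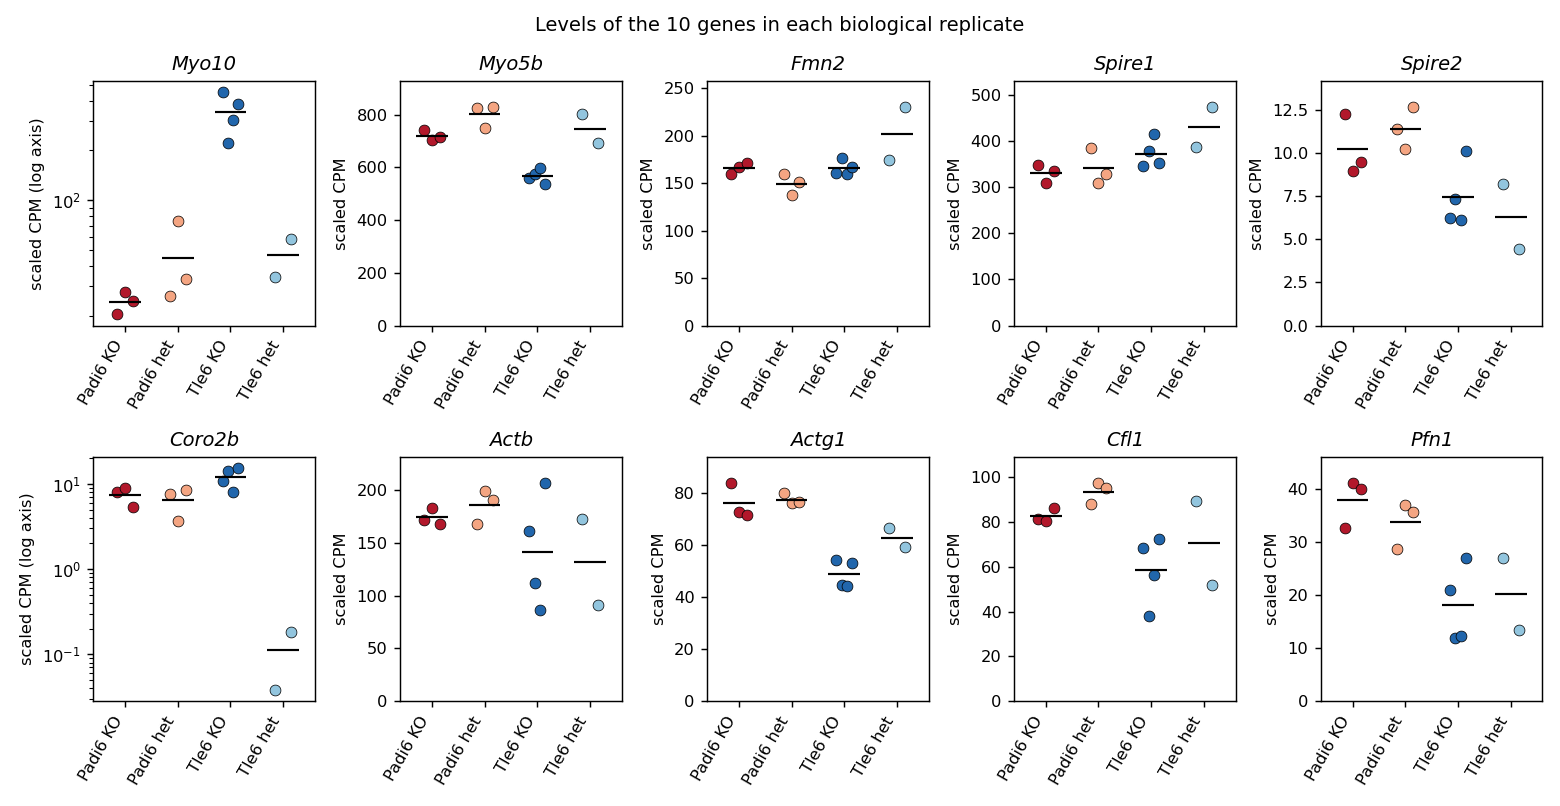
Scaled CPM in each biological replicate is plotted for the 10 genes in Padi6 KO, Padi6 het, Tle6 KO and Tle6 het oocytes, with a bar at each group mean; the axes of Myo10 and Coro2b are logarithmic. Myo10 lies between 221 and 449.6 in Tle6 KO oocytes and Coro2b below 0.2 in Tle6 het oocytes, while most other genes overlap between KO and het.

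Myo5b, the vesicle motor, was lower in KO than in het oocytes in every replicate of both lines, by small amounts that did not pass the test. It stood at 743, 706 and 715 scaled CPM in Padi6 KO, against 827, 750.5 and 829 in Padi6 het oocytes. Tle6 oocytes had 558, 576, 596.5 and 536 in KO, against 801.5 and 694.5 in het oocytes. The log2 fold change was -0.15 ± 0.09 for the Padi6 KO and -0.36 ± 0.16 for the Tle6 KO, with adjusted p of 0.378 and 0.278 by edgeR. Within Tle6 het replicate 2 Myo5b was at 579 unscaled CPM in library A and 591 in library B. Over the alternatives run, the Tle6 value ranged from -0.46 to -0.20, and from -0.49 to -0.27 with single replicates left out, with adjusted p no lower than 0.0514.

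Myo5a, a related class V myosin that carries melanosomes, was likewise lower in KO than in het oocytes in every replicate of both lines. Its mean was 46.1 ± 1.8 scaled CPM in Padi6 KO and 53.4 ± 1.4 in Padi6 het oocytes (SD, n = 3 each), and 52.3 ± 4.5 in Tle6 KO (n = 4) and 81.9 ± 8.8 in Tle6 het oocytes (n = 2). Its log2 fold changes of -0.21 ± 0.10 and -0.60 ± 0.18 did not pass, with adjusted p of 0.270 and 0.120 by edgeR. Myo5c stayed below 1.1 scaled CPM in every replicate.

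Actb and Actg1 encode the cytoplasmic beta and gamma actins. Actb stood at 172, 183 and 168 scaled CPM in Padi6 KO, against 168, 199 and 191 in Padi6 het oocytes. It was spread widely within the Tle6 genotypes, at 161, 112, 86.7 and 207 in KO, against 172 and 91.3 in het oocytes. The groups overlapped in both lines, and the log2 fold changes of -0.10 ± 0.10 and 0.15 ± 0.37 had adjusted p of 0.676 and 0.862 by edgeR. Without Tle6 het replicate 1 the Tle6 value was 0.66, and without Tle6 het replicate 2 it was -0.28.

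Actg1 stood at 84.0, 73.0 and 71.7 scaled CPM in Padi6 KO, against 80.0, 76.3 and 76.6 in Padi6 het oocytes, with overlap. Its Tle6 values were 54.3, 44.8, 44.2 and 53.3 in KO, against 66.6 and 59.3 in het oocytes, and all 4 KO values were below both het values. The log2 fold changes were -0.03 ± 0.10 and -0.31 ± 0.18, with adjusted p of 0.915 and 0.389 by edgeR. The transcript of Actg1 shares sequence with other genes, which makes its counts uncertain. Of the 50-base windows along its longest coding transcript, 56.7% also occur in transcripts of other genes, among them Actb and several processed pseudogenes. That share was 14.2% for Actb, 23.0% for Cfl1 and 0 for each of the other 7 genes.

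Cfl1 encodes cofilin, which severs filaments, and Pfn1 encodes profilin, which binds actin monomers. Cfl1 stood at 81.2, 80.2 and 86.4 scaled CPM in Padi6 KO, against 87.9, 97.4 and 95.2 in Padi6 het oocytes, with no overlap. Tle6 oocytes had 68.2, 38.0, 56.4 and 72.5 in KO, against 89.2 and 51.8 in het oocytes, with overlap. The log2 fold changes were -0.18 ± 0.10 and -0.22 ± 0.30, with adjusted p of 0.357 and 0.739 by edgeR, and the Tle6 value was -0.54 without library B of Tle6 het replicate 2 and 0.03 without library A.

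Pfn1 stood at 32.6, 41.1 and 40.0 scaled CPM in Padi6 KO, against 28.6, 37.0 and 35.6 in Padi6 het oocytes. Its Tle6 values were 21.0, 11.96, 12.3 and 27.0 in KO, against 27.0 and 13.4 in het oocytes. Its groups overlapped in both lines, and the log2 fold changes were 0.16 ± 0.14 and -0.11 ± 0.40, with adjusted p of 0.594 and 0.907 by edgeR. The Tle6 value of Pfn1 was -0.46 without library B of Tle6 het replicate 2, 0.15 without library A and 0.02 with total-count scaling.

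Within the Tle6 line, Actb, Actg1, Cfl1 and Pfn1 were high and low in the same replicates of each genotype. KO replicates 1 and 4 and het replicate 1 held the higher values, and KO replicates 2 and 3 and het replicate 2 the lower ones. Pfn1 had a coefficient of variation of 40.4% over the Tle6 KO replicates and 47.5% over the Tle6 het replicates, against 12.3% in Padi6 KO and 13.4% in Padi6 het oocytes. For Myo5b these were 4.55% and 10.1%, against 2.72% and 5.59%. Reads outside any gene made up 6.70% and 7.29% in Tle6 KO replicates 2 and 3, and between 5.65% and 5.84% in the libraries of Tle6 KO replicates 1 and 4. In Tle6 het replicate 2 they were 5.55% in library A and 5.39% in library B, beside 5.45% and 5.58% in those of Tle6 het replicate 1. The granulosa and cumulus markers summed to 130.1 and 123 unscaled CPM in Tle6 KO replicates 2 and 3 and to between 104 and 106 in the libraries of KO replicates 1 and 4. In the het group they summed to 135.5 and 99.9 in libraries A and B of replicate 2 and to 87.8 and 88.3 in those of replicate 1. Nr5a2 and Cyp19a1 made up most of this sum on average in both Tle6 groups. The part of library quality or of other cells in the spread of these 4 genes was not tested.

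Library B of Tle6 het replicate 2 had 21.9 unscaled CPM of Cfl1 and 4.79 of Pfn1, against 84.0 and 23.4 in library A. In library A, Cfl1 and Actg1, at 84.0 and 64.05, lay above both libraries of Tle6 het replicate 1. Pfn1 in library A lay between those libraries, and Actb, at 103.7, lay below both. Over all genes, edgeR's common biological coefficient of variation between replicates was 0.361 for the Tle6 line and 0.203 for the Padi6 line. Spire1 and Myo5b had the opposite order to Pfn1 over the Tle6 KO replicates, lower in replicates 1 and 4 than in 2 and 3. Fmn2 had neither order. The coefficients of variation there were 4.74% for Fmn2, 8.41% for Spire1 and 4.55% for Myo5b. In het replicate 1, Spire1 was lower than in het replicate 2, and Myo5b was higher. Myo10 shared the order of Pfn1 over the KO replicates, at 449.6 and 383 scaled CPM in KO replicates 1 and 4 and 221 and 307 in replicates 2 and 3. In the het replicates Myo10 had the opposite order, at 34.3 and 58.1. The Padi6 transcript was also higher in KO replicates 1 and 4 and in het replicate 1.

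Paralogs of cofilin and profilin gave no further change past the threshold between KO and het oocytes. Cfl2, the other cofilin, averaged 281 ± 34 scaled CPM in Padi6 KO and 237 ± 14 in Padi6 het oocytes (SD, n = 3 each), and 213 ± 62 in Tle6 KO (n = 4) and 380.2 ± 32.9 in Tle6 het oocytes (n = 2). Its log2 fold change of -0.79 ± 0.26 in the Tle6 line had an adjusted p of 0.156 by edgeR. Dstn, which encodes destrin, a relative of cofilin, had -0.57 ± 0.21 there with an adjusted p of 0.192, and Pfn2, a second profilin, had 0.18 ± 0.33 with an adjusted p of 0.807 by edgeR. In the Padi6 line the 3 paralogs had log2 fold changes of 0.24, -0.04 and -0.02 in the same order, none past the threshold.

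Coro2b was nearly absent from Tle6 het oocytes and present in the other 3 groups. It stood at 8.02, 8.97 and 5.36 scaled CPM in Padi6 KO, against 7.64, 3.62 and 8.38 in Padi6 het oocytes, with overlap. The log2 fold change in the Padi6 line was 0.19 ± 0.30 (adjusted p = 0.790 by edgeR), and -0.09 without Padi6 het replicate 2. Among Tle6 oocytes Coro2b stood at 10.8, 14.0, 8.06 and 15.4 in KO, against 0.0380 and 0.184 in het oocytes. All 4 KO values were above both het values, and Coro2b passed the filter on low counts there through the KO group.

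The Tle6 het level of Coro2b rests on few reads. The 4 Tle6 het libraries held 1 and 2 counts for replicate 1, and 17 and 1 counts for libraries A and B of replicate 2. Together these 21 counts stood against 3128 counts in the Tle6 KO libraries, which is a 119-fold higher share of the gene counts in KO. Without library B of Tle6 het replicate 2 the ratio was 79.2, and without library A it was 499. The fitted log2 fold change was 6.73, and 5.93 and 8.63 under those exclusions, described without a test because this contrast picked the gene. In the other 3 groups all Coro2b replicates lay between 3.62 and 15.4 scaled CPM. Strain, targeted gene and sequencing run cannot be told apart between the lines. The Padi6 line therefore gives no reference level that would show which Tle6 group had changed.

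No other coronin passed the threshold in either line. Coro2a, the closest paralog, averaged 7.04 ± 1.74 scaled CPM in Tle6 KO (SD, n = 4) and 16.3 ± 3.6 in Tle6 het oocytes (n = 2), the opposite order. Its log2 fold change of -1.17 ± 0.28 had an adjusted p of 0.0772 by edgeR. Coro1c averaged 6.60 ± 1.25 in Tle6 KO and 5.01 ± 0.95 in Tle6 het oocytes, and Coro1b, Coro6 and Coro7 had log2 fold changes of 0.04, 1.68 and 0.86 there.

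**Figure D4:**
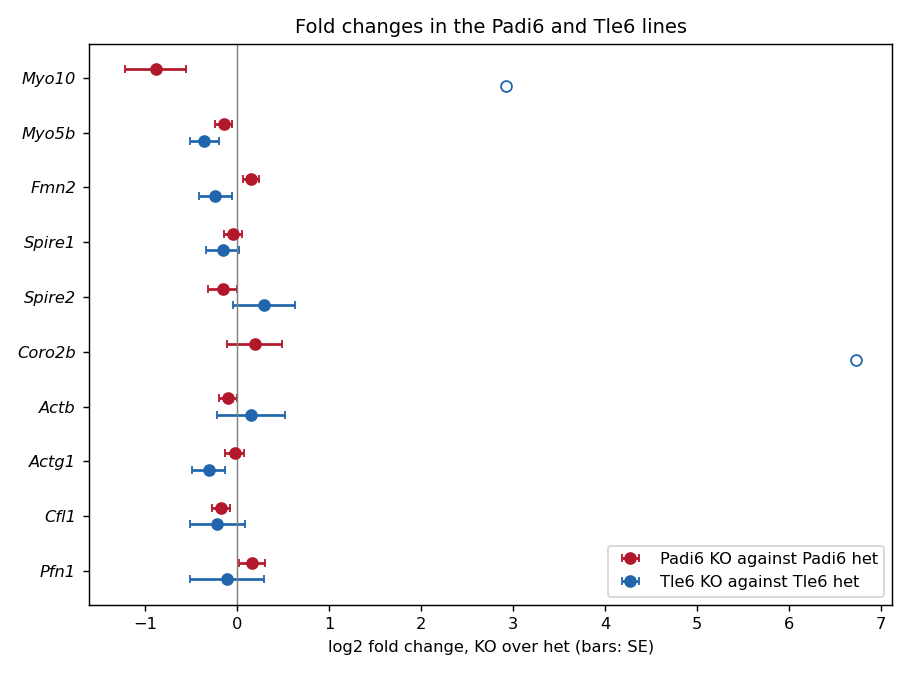
Log2 fold changes of KO over het are plotted for the 10 genes in each line, with bars of 1 SE; open circles mark Myo10 and Coro2b in the Tle6 line, which have no test. Apart from Myo10 at -0.89 and 2.92 and Coro2b at 6.73, the estimates lie between -0.36 and 0.29.

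Counted over the genes, none of the 10 passed the threshold between Padi6 KO and Padi6 het oocytes in edgeR's quasi-likelihood test at an adjusted p of 0.05, where 2.41% of the 18228 genes tested did. At an unadjusted p of 0.05 the count was 1, Myo10, where 18.6% of all genes were under it, and DESeq2 and limma-voom called none. The median log2 fold change of the 10 genes was -0.08, against -0.01 over all genes. The replicates did not overlap for 3 of the 10, Fmn2 above and Myo5b and Cfl1 below, and for 23.2% of all genes, so that count is close to the background.

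Between Tle6 KO and Tle6 het oocytes none of the 8 genes tested passed in edgeR's test, and 1.62% of 20276 genes did. None of the 8 had an unadjusted p under 0.05, where 19.0% of all genes did, and DESeq2 and limma-voom called none. Their median log2 fold change was -0.19, against 0.06 over all genes. Of the 8, Myo5b and Actg1 had KO replicates below both het replicates, and 15.8% of all genes had such an order. Total-count scaling moved the median of all genes to 0.22.

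For the difference between the effects of the KOs, none of the 8 passed in edgeR's test, against 4.32% of 21392 genes. At an unadjusted p of 0.05 the count was 1, Fmn2, where 20.7% of all genes were under it, and DESeq2 and limma-voom called none. The median of the 8 differences was -0.21, and that of all genes was 0.02.

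Between the controls, Fmn2 and Spire2 differed, but no more often than genes in general. Fmn2 was lower in Padi6 het than in Tle6 het oocytes, with a mean of 149 ± 11 scaled CPM (SD, n = 3) against 202 ± 40 (n = 2) and a log2 fold change of -0.43 ± 0.14 (adjusted p = 0.0384 by edgeR). Spire2 was higher, with 11.4 ± 1.2 in Padi6 het against 6.33 ± 2.69 in Tle6 het oocytes and a log2 fold change of 0.86 ± 0.30 (adjusted p = 0.0455 by edgeR). These were 2 of the 8 genes tested, where 28.5% of all genes passed. Both calls were lost on leaving out any single Padi6 replicate, KO or het, and without Tle6 het replicate 2, where the log2 fold changes were -0.22 and 0.48. That of Fmn2 was also lost without library A of Tle6 het replicate 2, with the replicate block and with total-count scaling (-0.12), and that of Spire2 without library B. Over the alternatives the adjusted p ranged from 0.0116 to 0.543 for Fmn2 and from 0.0124 to 0.336 for Spire2.

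Pfn1 had a log2 fold change of 0.74 ± 0.35 between Padi6 het and Tle6 het oocytes, with an adjusted p of 0.135 by edgeR. Actb had 0.50, Cfl1 0.41, Actg1 0.30, Myo5b 0.10 and Spire1 -0.33, none past the threshold. Without library B of Tle6 het replicate 2 the values were 0.44 for Pfn1, 0.12 for Cfl1 and 0.23 for Myo5b, and without library A they were 1.00, 0.65 and -0.01. Coro2b had 5.80 and Myo10 -0.05, without a test, and the Myo10 value was 1.03 without library B of Tle6 het replicate 2. Actg1, Cfl1, Myo5b and Pfn1 passed with total-count scaling, which moved the median of all genes in this contrast to 0.34.

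Across the wider actin machinery few genes passed the threshold within either line. The lists held 148 genes, among them the linear nucleators, the Arp2/3 complex and its activators, the unconventional myosins, non-muscle myosin II, the RAB11 vesicle carriers, the actins, monomer and turnover factors, coronins, and crosslinkers and cortex proteins. In the Padi6 line 132 were measured, 2 rose (1.69% of all genes did), 1 fell (0.724% of all genes did) and 129 did not pass, and their median log2 fold change was -0.03. Fmnl3, a formin of the plasma membrane, fell to 348 ± 19 scaled CPM in Padi6 KO, against 480.0 ± 29.6 in Padi6 het oocytes (SD, n = 3 each), a log2 fold change of -0.47 ± 0.10 (adjusted p = 0.0369 by edgeR). Rhob, a small GTPase that acts on the actin cortex and on endosomes, rose to 20.7 ± 3.9 in Padi6 KO, against 11.6 ± 2.0 in Padi6 het oocytes, a log2 fold change of 0.83 ± 0.18 (adjusted p = 0.0483 by edgeR). Tpm2, a tropomyosin that coats filaments, rose to 3.44 ± 0.62 in Padi6 KO, against 0.966 ± 0.181 in Padi6 het oocytes, a log2 fold change of 1.82 ± 0.26 (adjusted p = 0.0119 by edgeR). When both lines shared 1 estimate of spread per gene, none of the 3 passed, and each lost its call when some single replicates were left out.

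For the contrasts that use the Tle6 line, Myo10 and Coro2b were left out of the lists, which then held 146 genes. In the Tle6 line 135 of these were measured and none passed in edgeR's test, with a median log2 fold change of -0.06. At an unadjusted p of 0.05 in edgeR's test there were 34 of the 135, a larger share than the 19.0% of all genes. DESeq2 called 12 of the 135, where it called 8.54% of all genes, and limma-voom called none. Of the 20 other unconventional myosins tested, the median was 0.14, and of the 17 linear nucleators it was -0.16. In the Padi6 line the medians of these lists were -0.15 over 19 myosins, Myo10 with them, and -0.10 over 17 nucleators. Between Padi6 het and Tle6 het oocytes 56 of 136 wider genes passed, or 41.2%, against 28.5% of all genes. The share of all genes depends on the filter, and was 42.4% among genes with a mean of at least 5 CPM. The share of the wider genes under that filter is not given here, so the 41.2% cannot be set against the 42.4%.

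The carriers on which the mesh is organised gave no call within either line. All 8 RAB11 vesicle carriers were measured in both lines, with medians of -0.05 in the Padi6 and 0.01 in the Tle6 contrast. Rab11a, the small GTPase of the vesicles that MYO5B moves, averaged 315 ± 50 scaled CPM in Padi6 KO and 290.4 ± 19.8 in Padi6 het oocytes (SD, n = 3 each). It averaged 348.5 ± 25.9 in Tle6 KO (n = 4) and 481 ± 134 in Tle6 het oocytes (n = 2), a log2 fold change of -0.42 ± 0.20 (adjusted p = 0.294 by edgeR). The 9 subunits of the Arp2/3 complex, which nucleates branched filaments at the cortex, had medians of 0.05 in the Padi6 and -0.05 in the Tle6 contrast.

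**Figure D5:**
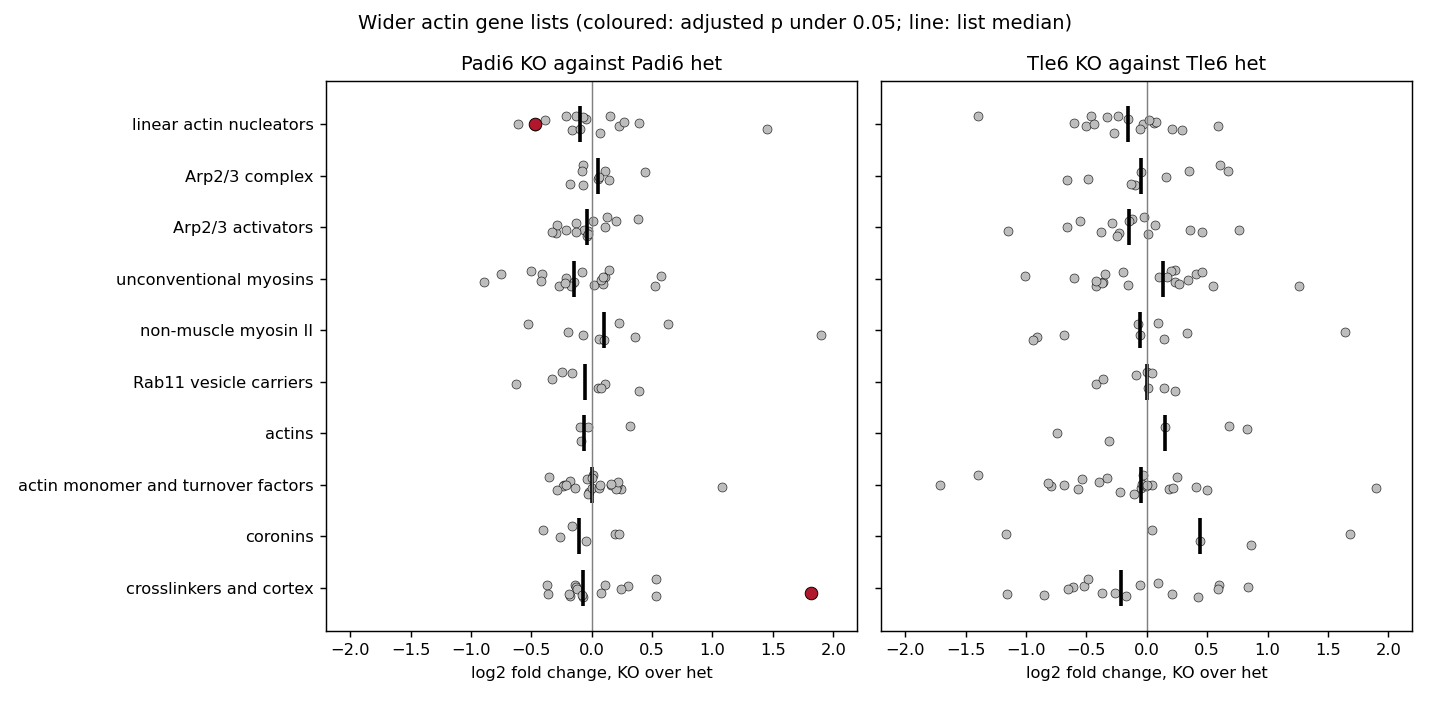
Log2 fold changes of KO over het are plotted for each measured gene of 10 wider actin lists in the Padi6 line (left) and the Tle6 line (right), with a vertical bar at each list's median; Coro2b and Myo10 are not plotted for the Tle6 line. The coloured points, with an adjusted p under 0.05, are Fmnl3 and Tpm2 in the Padi6 line.

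Over the 12 biological replicates, the genes whose log2 levels followed Myo10 most closely were Fbxl12, Prr3, Rad51d, Il17f and Rassf6. Their Pearson r ran from 0.954 for Fbxl12 to 0.929 for Rassf6, among 7406 candidate genes. Fbxl12 averaged 16.0 scaled CPM in Padi6 KO, 16.7 in Padi6 het, 53.3 in Tle6 KO and 18.7 in Tle6 het oocytes. Rad51d averaged 8.11, 16.6, 51.0 and 9.31 in the same order of groups. The replicates share lines, libraries and scaling, so these values describe a likeness in level and carry no test.

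The genes that followed Coro2b most closely were D5Ertd577e, Plcl1, AA792892, Stk36 and Uba6, with r from 0.969 to 0.938. Each was low in Tle6 het oocytes and similar in the other 3 groups. D5Ertd577e averaged 44.1 scaled CPM in Padi6 KO, 48.2 in Padi6 het, 44.1 in Tle6 KO and 0.216 in Tle6 het oocytes. Plcl1 averaged 10.6, 15.6, 13.5 and 0.0563 in the same order, and Stk36 averaged 231, 253, 243 and 13.5.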

How the data were processed

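Poly(A) RNA of 15 pooled GV oocytes per library was sequenced, and the authors deposited unnormalised read counts per gene for 15 libraries of 12 biological replicates. Per the submitters' processing notes, bcl2fastq 2.20.0.422, cutadapt 2.8, STAR 2.7.8a, HTSeq 2.0.2 and the mm39 build were used; no strand setting or annotation release is given in the sources used here. Counting summary lines and 92 spike-in transcripts (5 to 13772 counts per library, too uneven to scale by) were left out; reads in no gene were 5.39% to 7.29%, ambiguous reads 3.85% to 4.20% and multiply placed reads 12.1% to 14.5% of all reads counted. Without a strand setting, reads of overlapping antisense genes cannot be told apart (Cfl1 with Snx32, Myo5b with 1700120E14Rik, Spire1 with Gm17669). On the same strand, Gm2862 and Gm48996 overlap Myo10, Gm20388 overlaps Spire2, and Gm23419 and Mir6935 overlap Actg1. Any reads lost to these overlaps were not tested. Symbols, exonic lengths and transcripts came from GENCODE M21 on GRCm38, which matched 52093 of 53700 identifiers, and no GRCm38 coordinate was used on the counts.

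Technical libraries A and B were summed per biological replicate. Genes were filtered with filterByExpr, scaled with TMM and tested two-sided with edgeR 4.0.16 (glmQLFit, robust; glmQLFTest) in R 4.3.3, and p-values were adjusted by Benjamini-Hochberg across every gene that entered a fit (threshold 0.05). The lines were fitted separately, and the difference of effects and the contrast of controls in 1 fit of all replicates. Alternatives were other scalings and filters, DESeq2 1.42.0, limma-voom (limma 3.58.1), the replicate number as a block, single technical libraries and leaving out each replicate. The scripts were tested on simulated counts. The labels give replicates the same numbers across groups but do not say that a number marks a shared animal or day, so the main fits are unpaired. The correlations of same-numbered samples, given at the end, cannot decide whether the samples were paired.

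The 10 genes, the wider lists and the tests were chosen with earlier results of these data known. A further wider list is not reported by itself here; its genes are in the totals. Named were all 10 genes, the coronins other than Coro1a, chosen paralogs, Rab11a, and the wider-list genes past the threshold within a line or in the difference. Most of the nucleator list and the other actins entered the totals without being named. Also named were the 5 genes nearest to Myo10 and to Coro2b by Pearson r of log2 CPM (prior count 2). Those were sought among named protein-coding genes with a mean of at least 10 CPM.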

Additional observations from a re-analysis of the deposited data

Results flagged for a closer look

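For 5 of the 136 genes measured of the wider actin lists, or 3.68%, the effect of the Tle6 KO and the effect of the Padi6 KO differed in the test of the difference itself (edgeR's quasi-likelihood test, adjusted over all genes), where 4.32% of all genes did, so the count is no higher than the background. Gsn, which encodes the filament-severing protein gelsolin, averaged 1.79 ± 0.89 scaled CPM in Tle6 KO (SD, n = 4) and 6.03 ± 1.36 in Tle6 het oocytes (n = 2), and 9.31 ± 2.94 in Padi6 KO and 4.41 ± 1.53 in Padi6 het oocytes (n = 3 each). Its difference of effects was -2.83 ± 0.57 on the log2 scale (adjusted p = 0.0155 by edgeR), and -2.25 without library B of Tle6 het replicate 2 (adjusted p = 0.217). The difference for Tpm2, a tropomyosin, was -2.72 ± 0.56 (adjusted p = 0.0170 by edgeR), with all group means under 3.5 scaled CPM, and its call was lost with the replicate block (adjusted p = 0.0510) and without Tle6 het replicate 1 (0.0604).

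Cap1, which recycles actin monomers, had a difference of -1.66 ± 0.40 (adjusted p = 0.0327 by edgeR), with 5.21 ± 0.51 scaled CPM in Tle6 KO and 14.2 ± 9.2 in Tle6 het oocytes, and 27.2 ± 2.3 in Padi6 KO and 23.4 ± 3.2 in Padi6 het oocytes. Rock1, a kinase that activates myosin II, had -1.21 ± 0.32 (adjusted p = 0.0478 by edgeR), and Ect2, which acts in cytokinesis, had -1.12 ± 0.27 (adjusted p = 0.0324 by edgeR). Rock1 averaged 410 ± 128 in Tle6 KO and 812 ± 46 in Tle6 het oocytes, and 413 ± 69 in Padi6 KO and 352.5 ± 34.0 in Padi6 het oocytes. Without library B of Tle6 het replicate 2 the differences of Rock1 and Ect2 were -0.81 and -0.66, with adjusted p of 0.343 and 0.337 by edgeR. Without library A of that replicate, Cap1 had -1.39 with an adjusted p of 0.216. The replicate block also ended the calls of Cap1, Rock1 and Ect2, with adjusted p of 0.111, 0.104 and 0.0913 by edgeR. Of 23 alternatives, 18 ended the call of Rock1, 13 each those of Cap1 and Ect2, and 2 that of Gsn. For Tpm2 it was 2 of 22, since Tpm2 did not enter the fit of genes with a mean of at least 5 CPM. Within the Tle6 line alone, none of the 5 passed the threshold, and within the Padi6 line Tpm2 did. Among the 10 main genes no single Tle6 KO replicate stood apart by Dixon's criterion, which was applied to that group of 4 alone.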

How the results depend on the processing

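The count of the main genes past the threshold was 0 under every alternative run for the Tle6 KO contrast and for the difference of effects. For the Padi6 KO contrast it was 0 except with no filter on low counts, where it was 1 (Myo10). Between the controls, where 2 passed, it was 5 with total-count scaling and 1 without library B of Tle6 het replicate 2, without library A, with library A only and with the replicate block, and ran from 0 to 3 when single replicates were left out. Among the wider genes, 3 passed in the Padi6 line, against 9 without the filter, 8 with DESeq2, 6 with the replicate block and 0 with the spread shared by both lines, and 0 to 2 when replicates were left out. In the Tle6 line 0 passed, against 10 without the filter, 12 with DESeq2, 18 with the shared spread and 1 with each exclusion of a technical library, and 0 to 1 when replicates were left out. For the difference 5 passed, against 2 with total-count scaling, 17 without the filter, 3 with a mean of at least 5 CPM, 14 with DESeq2, 1 with the replicate block, 2 without library B or with library A only and 11 without library A, and 2 to 12 when replicates were left out. Between the controls 56 passed, against 34 without library B and 32 with library A only, and 35 to 59 when replicates were left out. Over all genes, 440 passed in the Padi6 line, against 1625 without the filter, 1336 with DESeq2 and 60 with the shared spread. In the Tle6 line 329 of all genes passed, against 1447, 1732 and 2061 in the same order. For the difference 924 of all genes passed, against 2078 without the filter, 1997 with DESeq2 and 398 with the replicate block. The cause was not tested.

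Small fold changes turned sign under some settings, again with the cause not tested. With total-count scaling the difference of effects was 0.12 for Cfl1 and 0.07 for Spire1, and the Tle6 fold change was 0.02 for Pfn1 and 0.00 for Spire1. Without library A of Tle6 het replicate 2 the Tle6 fold change was 0.03 for Cfl1 and 0.15 for Pfn1, the difference was 0.15 for Cfl1, and the contrast of controls was -0.01 for Myo5b. With single replicates left out, the Tle6 fold change ranged from -0.28 to 0.66 for Actb, -0.60 to 0.21 for Cfl1, -0.57 to 0.45 for Pfn1 and -0.13 to 0.78 for Spire2. The difference ranged from -0.19 to 0.71 for Actb, -0.43 to 0.35 for Cfl1 and -0.75 to 0.25 for Pfn1. In the Padi6 line it was -0.10 to 0.01 for Actg1, -0.09 to 0.40 for Coro2b and -0.10 to 0.04 for Spire1. In the Tle6 contrast Coro2b ranged from 5.84 to 8.63 and Myo10 from 2.42 to 3.98. Both were picked on that contrast in these libraries, so their unchanged sign is no support for either change.

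The labels do not say what a shared replicate number stands for. Deviations of same-numbered samples correlated at 0.106, 0.055 and 0.066 in the Padi6 line, where each sample correlated best with its own number, and at 0.051 and 0.104 in the Tle6 line. The replicate block moved the genes called in the Padi6 line to 859 from 440 and in the Tle6 line to 57 from 329. The Tle6 het group of 2 replicates, 1 of them split between disagreeing libraries, limits every Tle6 value; with 1 het replicate left out, the lone replicate is assumed to vary like the KO group.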
